A study of Mus musculus with 10 samples.

Results

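The 10 genes described here belong to the p53 pathway and were followed through RNA-seq and ATAC-seq libraries of injured mouse retina. They are *Trp53*, its inhibitors *Mdm2* and *Mdm4*, the p53 targets *Cdkn1a*, *Ccng1*, *Sesn1* and *Sesn2*, and the GADD45 family, *Gadd45a*, *Gadd45b* and *Gadd45g*. They were chosen by symbol, with earlier results of these data known. All 10 are listed among the 53974 genes of the RNA-seq table and passed its filter on low values (at least 3 of 6 libraries with a TPM of 1 or more), which left 17555 genes. TPM is transcript abundance scaled for transcript length and to a fixed sum per library, so levels can be compared between genes. In the ATAC-seq comparison, 8 of 16600 regions lay within 1000 bp of an end of 7 of the 10 genes, while 51.5% of the genes tested with a position had such a region.

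All mice were C57BL/6, aged 8 to 10 weeks per the labels, and homozygous for a floxed *Arid1a*, which encodes a subunit of SWI/SNF, a complex that remodels chromatin. The libraries labelled WT (genotype Arid1a fl/fl) received AAV2-GFP and those labelled cKO (genotype Arid1a del/del) received AAV2-Cre, 2 weeks before optic nerve crush (ONC), and Thy1.2-PE-positive, DAPI-negative retinal cells were sorted 3 days after ONC. Every library thus comes from floxed, virus-injected and crushed eyes, no uninjured group is among the samples used here, and retinas were pooled for each sample, so 1 library stands for several animals. Cre was driven by the CMV promoter, which is not restricted to RGCs. There were 3 RNA-seq and 2 ATAC-seq libraries per label, described by the submitters as biological replicates.

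p53 is a transcription factor that is made steadily and degraded just as steadily, because MDM2 attaches ubiquitin to it and MDM4 helps to hold it inactive. When DNA damage or other stress frees p53, it activates genes that stop the cell cycle, repair damage, limit oxidative stress or start cell death, along with *Mdm2* itself, which closes the loop. GADD45 proteins are small stress-induced proteins that bind cell cycle and repair proteins and the MAP3 kinase MEKK4. In retinal ganglion cells (RGCs), p53 and the stress kinases are known parts of the response to axon injury.

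Some facts about the libraries touch every RNA value below. RNA of *Arid1a*, the deleted gene, was not lower under the label cKO: it was 18.8, 11.7 and 14.1 TPM in replicates 1, 2 and 3 labelled WT and 18.8, 27.9 and 25.0 TPM in those labelled cKO (log2 difference 0.66, standard error 0.28, adjusted p = 0.274 from limma). Directions therefore rest on the labels, and values per gene cannot show the floxed exons alone. Of 15 RGC markers, *Pou4f2* and *Pou4f3* were each listed at 0 in 5 of 6 libraries, and *Slc17a6* did not exceed 1.57 TPM. *Rbpms* (1.82 to 6.43 TPM), *Rbpms2* (2.69 to 8.65 TPM) and *Tubb3* (3.45 to 12.0 TPM) were low but present in every library. The sum of the 15 lay between 155 and 215 TPM for WT and between 243 and 268 TPM for cKO. Most of it came from *Thy1* and *Isl1*, which other cells also express, so the sum is no measure of RGC content. Of the 12 tested, 8 were higher under the label cKO, and 4 (*Rbpms*, *Rbpms2*, *Pou4f1* and *Sncg*) were lower. Markers shared with other cells were present, such as *Thy1*, the gene of the sorted antigen (51.9 to 129 TPM), *Isl1*, also a bipolar cell marker (51.9 to 104 TPM), and *Nefl* (5.47 to 20.6 TPM). Other cell types moved with the label. The summed level of 13 T cell markers lay between 1147 and 3311 TPM for WT and between 291 and 694 TPM for cKO, with 13 of 13 lower, and 12 myeloid markers between 2184 and 3728 TPM and between 984 and 1344 TPM, with 12 of 12 lower. The sum of 10 rod markers lay between 12585 and 17559 TPM for WT and between 25670 and 48836 TPM for cKO, with 10 of 10 higher. No T cell, myeloid or rod marker was at 0 in any library, and the part of these cells in the results below was not tested. In such bulk libraries, fewer cells of a type and less RNA per cell cannot be told apart. The median log2 difference of all genes tested was 0.16, and it was 0.01 when the libraries were rescaled (median of ratios), so a difference near 0.16 is that of a typical gene.

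*Trp53*, on chromosome 11 of GRCm38.p6 from 69580348 to 69591873, encodes p53 itself. Its RNA was 63.9, 44.4 and 62.0 TPM in the libraries labelled WT and 42.9, 40.0 and 41.1 TPM in those labelled cKO. Every cKO library lay below every WT library, though WT replicate 2 came close to them. Its log2 difference came to -0.43 (standard error 0.22; adjusted p = 0.348 from limma). The exact two-sided permutation test gave p = 0.1, the smallest that 3 libraries against 3 allow.

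The RNA of neither p53 inhibitor was called. *Mdm2*, the ubiquitin ligase, measured 61.3, 71.9 and 84.2 TPM for WT and 81.7, 76.1 and 83.6 TPM for cKO. WT replicate 3 lay above the cKO libraries and the other two WT libraries below them, and the log2 difference of 0.16 (standard error 0.21, adjusted p = 0.709 from limma) turned to -0.01 under median-of-ratios scaling. *Mdm4*, its relative without strong ligase activity, measured 42.0, 41.9 and 54.4 TPM for WT and 57.5, 52.1 and 71.7 TPM for cKO. WT replicate 3 lay among the cKO libraries (log2 difference 0.38, standard error 0.23, adjusted p = 0.413 from limma). Within same-numbered pairs the cKO library was higher in 3 of 3, by 0.45, 0.31 and 0.39 on the log2 scale, and the limma fit blocked on that number gave an adjusted p of 0.315. The *Mdm2* to *Mdm4* ratio of TPM was 1.46, 1.72 and 1.55 for WT and 1.42, 1.46 and 1.17 for cKO. On the log2 scale the mean ratio was 0.65 ± 0.12 (SD, n = 3) for WT and 0.43 ± 0.18 (SD, n = 3) for cKO, a difference of -0.23 (exact two-sided permutation test, p = 0.2). The ratio was lower for cKO in 3 of 3 same-numbered pairs (exact sign-flip test, p = 0.25, the smallest that 3 pairs allow).

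Among the 4 targets, *Cdkn1a* stood apart from the others. It encodes p21, the CDK inhibitor through which p53 arrests the cell cycle, and lies on chromosome 17 from 29090979 to 29100722. It had the lowest mean level of the 10 genes, with 19.1, 16.8 and 11.7 TPM for WT and 7.06, 2.65 and 4.73 TPM for cKO. The groups did not overlap. The mean was 15.9 ± 3.75 TPM (SD, n = 3) for WT and 4.81 ± 2.21 TPM (SD, n = 3) for cKO. The log2(TPM + 1) difference was -1.58 (standard error 0.37), the largest in size of the 10, with an unadjusted p of 0.0037 and an adjusted p of 0.127 from limma, so it was not called. With the replicate number as a block the adjusted p was 0.0877, and leaving out any 1 library gave differences from -1.86 to -1.28.

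None of the other 3 targets was separated between the labels. *Ccng1*, which encodes cyclin G1, a feedback partner of MDM2, measured 60.3, 48.4 and 65.5 TPM for WT and 75.9, 83.7 and 64.1 TPM for cKO (log2 difference 0.36, standard error 0.22, adjusted p = 0.425 from limma). *Sesn1*, a sestrin that restrains mTORC1 and supports antioxidant defense, was on average the most abundant of the 10, at 74.5, 161 and 137 TPM for WT and 106, 111 and 136 TPM for cKO. Its 3 cKO libraries lay inside the WT range (log2 difference -0.01, standard error 0.32, adjusted p = 0.987 from limma). *Sesn2*, the sestrin that also answers ATF4, measured 16.1, 29.0 and 22.1 TPM for WT and 26.5, 22.0 and 29.4 TPM for cKO (log2 difference 0.23, standard error 0.28, adjusted p = 0.690 from limma).

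**Figure D1:**
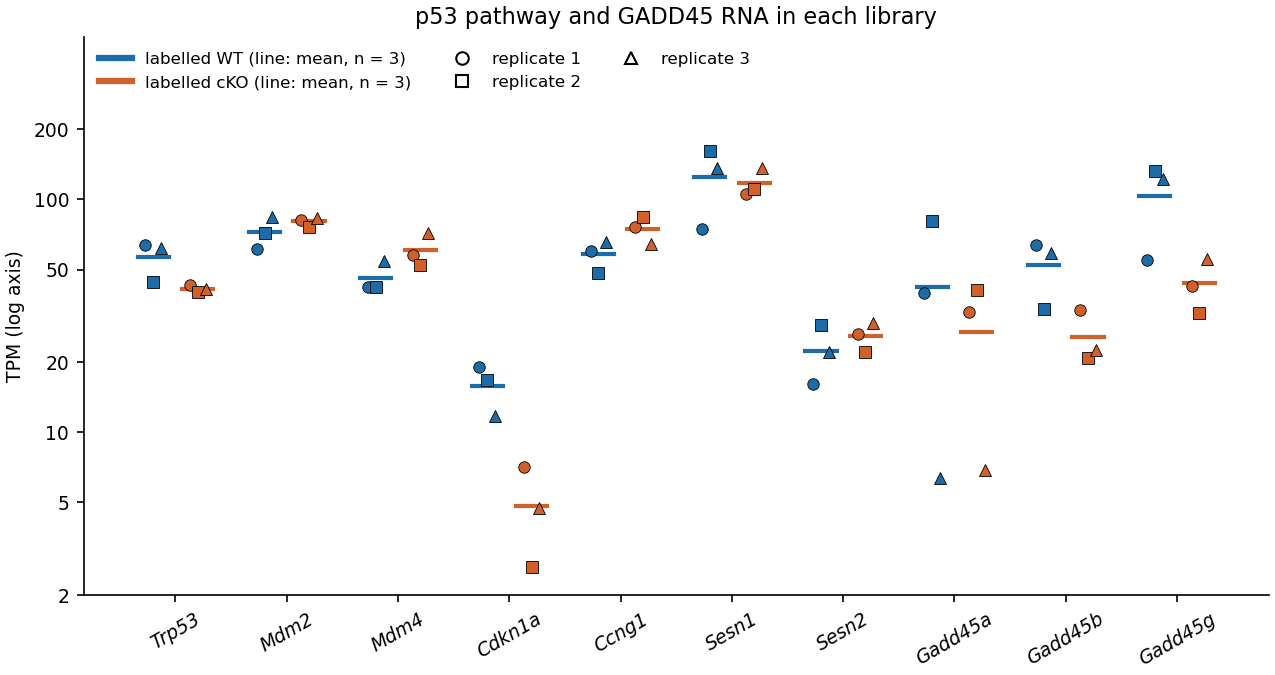
TPM of the 10 genes in each of the 6 libraries, on a log axis, with the mean of each label as a line and the replicate number as the symbol. *Cdkn1a* is separated between the labels, from 11.7 to 19.1 TPM for WT against 2.65 to 7.06 TPM for cKO, and both replicates 3 of *Gadd45a* lie far below the other libraries.

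The 3 GADD45 genes had different patterns over the libraries. *Gadd45b*, on chromosome 10 from 80930091 to 80932204, is the member known for its induction through NF-kappaB. It measured 63.8, 33.8 and 59.0 TPM for WT and 33.4, 21.0 and 22.5 TPM for cKO. The groups did not overlap, but WT replicate 2 and cKO replicate 1 were within 1 TPM of each other. The mean was 52.2 ± 16.1 TPM (SD, n = 3) for WT and 25.6 ± 6.81 TPM (SD, n = 3) for cKO, with a log2 difference of -0.98 (standard error 0.32, unadjusted p = 0.019, adjusted p = 0.189 from limma).

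*Gadd45g*, on chromosome 13 from 51846675 to 51848475, is the member known for roles in development and in T cell cytokine production. It measured 54.8, 133 and 122 TPM for WT and 42.5, 32.7 and 55.6 TPM for cKO. WT replicate 1 lay just below cKO replicate 3, so the groups overlapped, while the other two WT libraries were far above. The log2 difference was -1.16 (standard error 0.39, unadjusted p = 0.0201, adjusted p = 0.192 from limma).

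*Gadd45a*, on chromosome 6 from 67035096 to 67037407, is the family member most firmly tied to p53. It measured 39.5, 80.9 and 6.38 TPM for WT and 33.0, 41.0 and 6.88 TPM for cKO. Replicate 3 was the low library under both labels, and the highest library held 12.7 times the lowest. The replicate number took 95.0% of the sum of squares of log2(TPM + 1) and the label 2.09%, against medians of 37.9% and 25.8% over all genes tested. The log2 difference of -0.37 (standard error 0.98, adjusted p = 0.868 from limma) therefore has a wide error. With the replicate number as a block the standard error was 0.28 and the adjusted p 0.467. The difference turned to 0.37 without WT replicate 2 and to 0.38 without cKO replicate 3. Of the 33 p53 targets tested on 2 lists described below, 8 (24.2%) also had their lowest value in replicate 3 under both labels, beside 16.8% of all genes tested, and 7 (21.2%) had their highest there, beside 17.7%. *Bax*, the pore-forming protein of mitochondrial cell death, measured 158, 227 and 71.1 TPM for WT and 150, 124 and 49.0 TPM for cKO. *Ppm1d*, which encodes the phosphatase WIP1 that switches p53 signaling off, measured 42.7, 64.2 and 6.90 TPM for WT and 41.9, 52.4 and 8.41 TPM for cKO. *Phlda3*, an inhibitor of AKT, measured 14.9, 40.3 and 2.2 TPM for WT and 10.9, 13.1 and 2.19 TPM for cKO. *Ppm1d* and *Phlda3* were picked out after their values were seen.

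The family's summed RNA was 158, 248 and 187 TPM for WT and 109, 94.6 and 84.9 TPM for cKO, with no overlap. The shares of the 3 genes in that sum varied widely between libraries of a label. *Gadd45g* took 34.7%, 53.7% and 65.1% of it for WT and 39.0%, 34.5% and 65.5% for cKO. *Gadd45b* took 40.4%, 13.7% and 31.5% for WT and 30.7%, 22.1% and 26.4% for cKO. *Gadd45a* took 25.0%, 32.7% and 3.40% for WT and 30.3%, 43.3% and 8.10% for cKO. Exact two-sided permutation tests of the 3 shares gave p-values of 0.6, 0.8 and 0.9 for *Gadd45a*, *Gadd45b* and *Gadd45g*, each 0.9 after Benjamini-Hochberg adjustment over the 3. Within same-numbered pairs the *Gadd45a* share was higher for cKO in 3 of 3, by 5.31, 10.7 and 4.69 percentage points (exact sign-flip test, p = 0.25, the smallest possible), and the other shares went both ways.

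**Figure D2:**
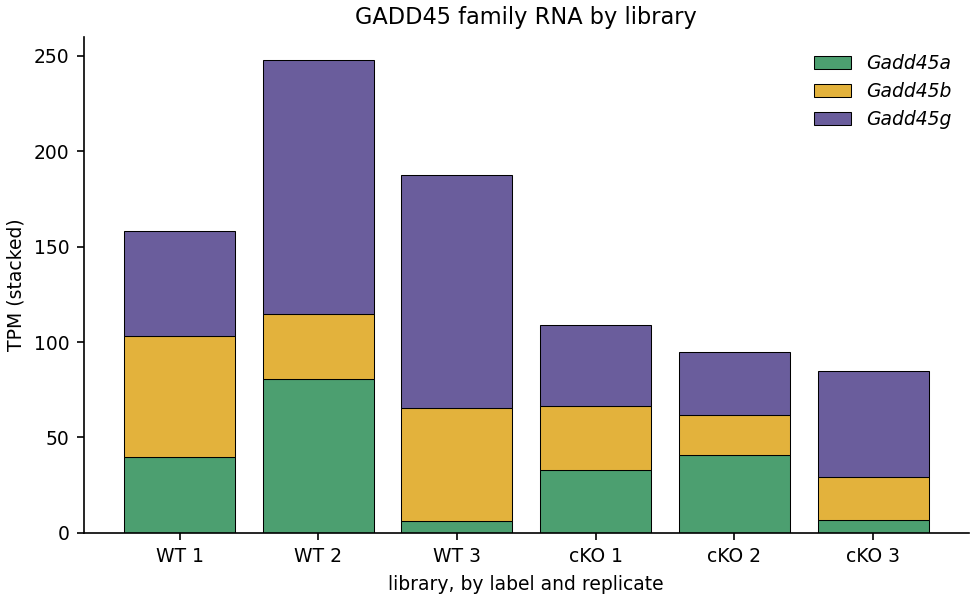
Stacked TPM of *Gadd45a*, *Gadd45b* and *Gadd45g* in each library, by label and replicate. The total is between 158 and 248 TPM for WT and between 84.9 and 109 TPM for cKO, and the *Gadd45a* part is thin in replicate 3 of both labels.

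Of the 10 genes, 0 were called at an adjusted p under 0.05 with limma, where 0.0057% of all genes tested were called higher and 0% lower. A gene that was not called may still differ. On simulated libraries, 3 per label, the same fit called 0 of 67 genes given a log2 change of 1. It called 38 of 71 genes given a change of 2. At an unadjusted p under 0.05, 3 of 10 were lower under the label cKO (*Cdkn1a*, *Gadd45b* and *Gadd45g*), beside 6.45% of all genes tested, and 0 were higher, beside 11.9%. In 3 of 10 (*Trp53*, *Cdkn1a* and *Gadd45b*) every cKO library lay below every WT library, beside 7.18% of all genes tested, and in 0 every cKO library lay above, beside 18.7%. The median log2 difference of the 10 was -0.19, with 4 positive and 6 negative, and it was 0.19 without WT replicate 2 and 0.0049 without cKO replicate 3, so the direction of the median rests on these libraries. Over all genes tested the median was 0.16. The count at an unadjusted p was 1 without WT replicate 3, where *Cdkn1a* alone remained, and also 1 without cKO replicate 2. The immune marker lists given above, lower under the label cKO, moved in the same direction as the 3 genes, and their part in this was not tested.

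**Figure D3:**
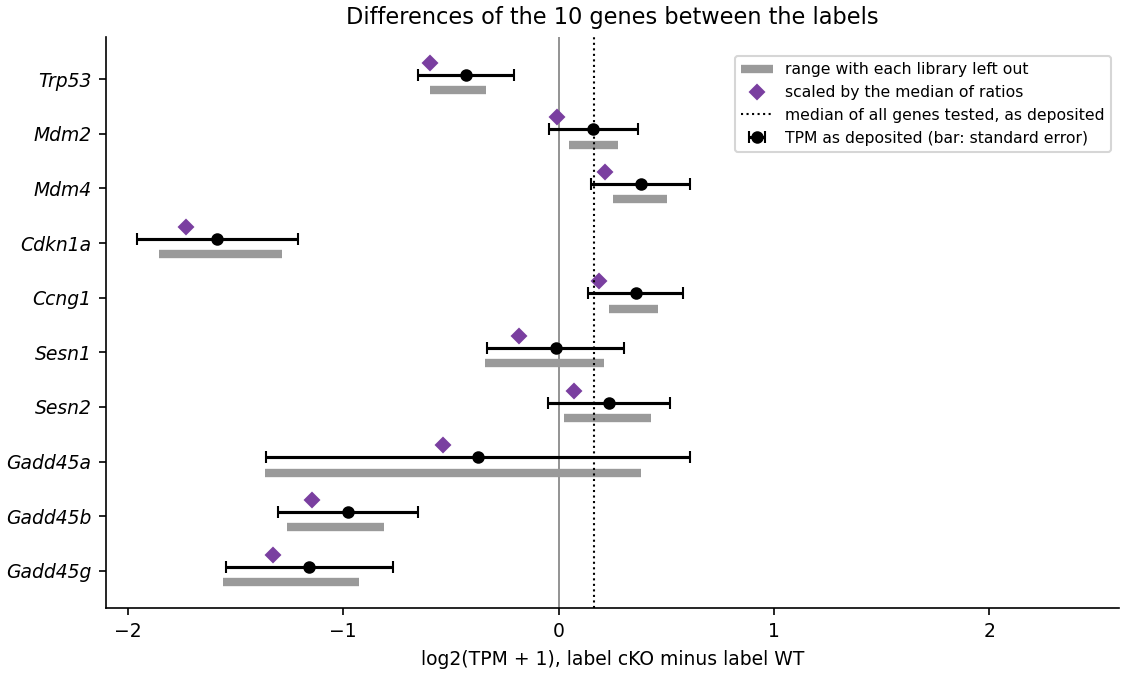
Log2(TPM + 1) difference of each gene, label cKO minus label WT, with its standard error (black), its value after scaling by the median of ratios (diamonds), and the range with each library left out (grey). *Cdkn1a* is farthest from 0 at -1.58, and only *Sesn1* and *Gadd45a* have grey ranges that cross 0.

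*Sesn1* had the highest and *Cdkn1a* the lowest mean under both labels. Averaged over the 6 libraries, *Sesn1* measured 121 TPM, followed by *Mdm2* (76.5 TPM), *Gadd45g* (73.4 TPM), *Ccng1* (66.3 TPM), *Mdm4* (53.3 TPM), *Trp53* (49.0 TPM), *Gadd45b* (38.9 TPM), *Gadd45a* (34.6 TPM), *Sesn2* (24.2 TPM) and *Cdkn1a* (10.3 TPM). The ranges over the libraries of each pair of neighbours in that order overlapped, and between these ends the order differed by label: *Gadd45g* was above *Mdm2* for WT (means of 103 and 72.4 TPM) and below *Mdm4* for cKO (43.6 and 60.4 TPM). *Sesn1* stood above 91.6% of the genes tested and *Cdkn1a* above 41.8%.

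Other genes of the pathway were read from 6 lists, which were also written with earlier results of these data known. In limma, 0 of their genes had an adjusted p under 0.05. For comparison, 10733 of all genes tested had a positive and 6822 a negative log2 difference, with a median of 0.16, and at an unadjusted p under 0.05 the shares were 6.45% lower and 11.9% higher. Each list is set beside these. Of the 16 listed p53 targets of cell death, 14 were tested: 2 had a positive and 12 a negative log2 difference, with a median of -0.47, and at an unadjusted p under 0.05 there were 5 lower and 0 higher. Among them *Fas*, the death receptor, measured 10.7, 7.86 and 11.0 TPM for WT and 4.04, 2.71 and 3.77 TPM for cKO (log2 difference -1.27, standard error 0.28, adjusted p = 0.124 from limma). *Pmaip1*, which encodes the BH3-only protein NOXA, measured 37.1, 10.2 and 33.9 TPM for WT and 10.1, 5.75 and 8.32 TPM for cKO (log2 difference -1.47, adjusted p = 0.199 from limma). *Dram1*, a lysosomal p53 target of autophagy, was low throughout, from 1.86 to 2.12 TPM for WT and from 0.357 to 1.06 TPM for cKO (log2 difference -0.80, adjusted p = 0.211 from limma). In 5 of the 14, these 3 among them, every cKO library lay below every WT library, beside 7.18% of all genes tested. In 0 of the 14 every cKO library lay above, beside 18.7%. The 3 genes were named for the lowest p of their list, so their separation is partly built into the choice. *Bbc3*, which encodes the BH3-only protein PUMA, measured 5.35, 13.3 and 1.84 TPM for WT and 1.73, 1.16 and 1.66 TPM for cKO (log2 difference -1.35, adjusted p = 0.271 from limma). Its groups did not overlap either, but WT replicate 3 was almost level with the cKO libraries. *Bax*, whose values are given above, overlapped (log2 difference -0.49, adjusted p = 0.667 from limma). Both rest on single libraries in size: *Bbc3* was at -0.76 without WT replicate 2, and *Bax* ran from -0.96 without WT replicate 3 to -0.0028 without cKO replicate 3.

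The 21 listed p53 targets of arrest, repair and metabolism were split. Of the 19 tested, 9 had a positive and 10 a negative log2 difference, with a median of -0.0011, and 1 was lower at an unadjusted p under 0.05. That gene was *Pml*, the scaffold of PML nuclear bodies, at 25.8, 25.8 and 33.4 TPM for WT and 12.9, 11.8 and 20.0 TPM for cKO (log2 difference -0.91, adjusted p = 0.174 from limma). The 27 listed kinases, modifiers and cofactors of p53 lay near all genes tested in their counts by direction and at an unadjusted p. Of the 23 tested, 15 had a positive and 8 a negative log2 difference, with a median of 0.30, and 2 were higher at an unadjusted p under 0.05. In 7 of the 23 every cKO library lay above every WT library, beside 18.7% of all genes tested. In 0 every cKO library lay below, beside 7.18%. *Kat5*, the acetyltransferase TIP60, measured 215, 123 and 201 TPM for WT and 359, 427 and 451 TPM for cKO (log2 difference 1.23, standard error 0.27, adjusted p = 0.124 from limma). *Kat8*, the acetyltransferase MOF, measured 20.6, 17.0 and 14.4 TPM for WT and 37.8, 32.4 and 24.1 TPM for cKO (log2 difference 0.82, adjusted p = 0.187 from limma).

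GADD45 binding partners lay close to the typical gene. Of 13 listed, 11 were tested, 6 with a positive and 5 with a negative log2 difference and a median of 0.14, and 0 passed an unadjusted p under 0.05 in limma. *Map3k4*, which encodes MEKK4, measured 12.6, 19.6 and 19.2 TPM for WT and 17.1, 17.3 and 22.0 TPM for cKO (log2 difference 0.14, adjusted p = 0.807 from limma; -0.02 with median-of-ratios scaling).

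The integrated stress response, through which *Sesn2* is also induced, was mixed. Of 18 listed genes 17 were tested, 9 with a positive and 8 with a negative log2 difference and a median of 0.05, and at an unadjusted p under 0.05 there were 1 higher and 2 lower. *Vldlr*, a lipoprotein receptor induced by ATF4, measured 16.3, 24.8 and 15.7 TPM for WT and 37.5, 40.5 and 30.4 TPM for cKO (log2 difference 0.92, adjusted p = 0.159 from limma). *Ppp1r15a*, known as GADD34, which ends the response by directing a phosphatase to eIF2α, measured 73.8, 57.1 and 82.1 TPM for WT and 40.1, 26.4 and 46.7 TPM for cKO (log2 difference -0.92, adjusted p = 0.174 from limma). *Eif2ak3*, the kinase PERK, measured 12.2, 10.4 and 5.18 TPM for WT and 3.85, 4.40 and 3.68 TPM for cKO (log2 difference -0.98, adjusted p = 0.216 from limma). The injury-induced factors *Atf3* (log2 difference -1.02, adjusted p = 0.33 from limma) and *Ddit3*, or CHOP (log2 difference -0.34, adjusted p = 0.583 from limma), overlapped between the labels. *Ddit3* was at -0.04 without WT replicate 2, and *Atf3* at -0.63 without WT replicate 3.

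CDK inhibitors other than p21, with the cyclins and kinases they act on, were mostly negative. All 14 listed were tested, 3 with a positive and 11 with a negative log2 difference, with a median of -0.51, and 2 lower and 0 higher genes at an unadjusted p under 0.05. Cyclin D2 (*Ccnd2*) measured 122, 48.7 and 129 TPM for WT and 23.8, 10.6 and 22.1 TPM for cKO (log2 difference -2.30, standard error 0.47, adjusted p = 0.124 from limma). Cyclin D1 (*Ccnd1*) measured 40.7, 67.0 and 65.6 TPM for WT and 22.8, 17.1 and 46.0 TPM for cKO, and its groups overlapped (log2 difference -1.07, adjusted p = 0.225 from limma). Both are known in cycling cells, *Ccnd2* also in lymphocytes, whose markers moved the same way, and the part of these cells was not tested. With median-of-ratios scaling, which put the median of all genes at 0.01, the list medians were -0.64 for targets of cell death, -0.16 for targets of arrest, repair and metabolism, 0.15 for kinases, modifiers and cofactors, -0.02 for GADD45 partners, -0.11 for the integrated stress response and -0.68 for CDK inhibitors and their partners, so the partners and the stress response changed sign.

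The sequences at the start sites show where the p53 motif stands in those promoters that ATAC-seq covered. RefSeq promoters on GRCm38.p6 (250 bases before to 50 after a start site, which is counted as position 0) matched all 10 genes, with 13 start sites. The p53 half-site, the 10-base consensus of which p53 binds a pair, was searched on both strands, and as it is its own reverse complement both strands give the same sites. It stood in 6 of the 13 promoters, in 6 of the 10 genes, and in 8.36% of all 32851 promoters of that length. *Trp53*, *Mdm2*, *Cdkn1a*, *Ccng1*, *Sesn1* and *Gadd45a* held it, and in *Mdm4*, *Sesn2*, *Gadd45b* and *Gadd45g* the letters were not in the window. The 4 promoters that held a half-site and lay under a region of the ATAC-seq comparison are shown 5′ to 3′ on the strand of the gene, with the half-site in capitals. They are *Mdm2* at chr10:117710709-117711008 on the minus strand (half-site from -186 to -177), *Ccng1* at chr11:40755237-40755536 on the minus strand (-185 to -176), the internal start site of *Sesn1* at chr10:41887189-41887488 on the plus strand (-173 to -164), and *Gadd45a* at chr6:67037358-67037657 on the minus strand (-40 to -31).
Mdm2: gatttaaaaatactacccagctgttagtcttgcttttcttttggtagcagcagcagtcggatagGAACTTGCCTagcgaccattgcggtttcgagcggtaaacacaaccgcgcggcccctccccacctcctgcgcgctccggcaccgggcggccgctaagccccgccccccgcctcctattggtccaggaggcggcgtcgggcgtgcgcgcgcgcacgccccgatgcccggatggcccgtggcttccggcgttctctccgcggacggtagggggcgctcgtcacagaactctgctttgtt
Ccng1: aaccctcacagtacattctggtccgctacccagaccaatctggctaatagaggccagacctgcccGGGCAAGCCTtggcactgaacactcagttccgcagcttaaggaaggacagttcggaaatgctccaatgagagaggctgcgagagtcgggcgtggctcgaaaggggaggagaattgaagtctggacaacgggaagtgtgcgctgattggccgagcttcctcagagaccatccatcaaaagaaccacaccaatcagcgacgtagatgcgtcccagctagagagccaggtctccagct
Sesn1: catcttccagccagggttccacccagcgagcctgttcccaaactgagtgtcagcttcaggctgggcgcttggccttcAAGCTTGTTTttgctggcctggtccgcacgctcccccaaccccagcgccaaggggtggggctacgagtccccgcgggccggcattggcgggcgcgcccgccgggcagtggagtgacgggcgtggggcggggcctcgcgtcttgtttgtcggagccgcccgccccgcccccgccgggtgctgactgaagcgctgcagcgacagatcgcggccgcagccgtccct
Gadd45a: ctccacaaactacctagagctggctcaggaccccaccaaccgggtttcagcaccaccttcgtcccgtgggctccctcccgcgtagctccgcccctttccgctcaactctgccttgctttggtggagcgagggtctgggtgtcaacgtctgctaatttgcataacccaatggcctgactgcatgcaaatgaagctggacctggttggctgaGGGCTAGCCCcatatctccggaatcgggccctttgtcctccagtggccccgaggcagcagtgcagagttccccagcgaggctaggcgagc
Only the *Gadd45a* half-site lies within the core promoter, and the other 3 end at -164 or farther upstream. A match is a run of letters and no evidence of binding. The best known p53 sites of *Mdm2* and *Gadd45a* lie in introns, outside these windows.

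*Cdkn1a*, which had the largest RNA difference, held a pair of half-sites 12 bases apart before its upstream start site. A pair at most 13 bases apart stood in 1 of the 13 promoters and in 24 (0.0731%) of the 32851. The stretch is shown for this reason, chosen after the RNA values were seen, at chr17:29090906-29090937 on the plus strand (-73 to -42), with the half-sites in capitals.
Cdkn1a: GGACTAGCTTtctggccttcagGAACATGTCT
Positions in this stretch are counted from the upstream start site at 29090979. The other start site of *Cdkn1a* lies downstream, at 29093769, and the stretch is far upstream of it. Only exact matches to the consensus were counted. The 10 letters right after the stretch differ from it at their first letter alone, so a closer pair was left out. Which of these letters p53 binds, if any, was not tested.

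The GADD45 genes differ in their core promoters, and the 70 bases from -60 to 9 are shown side by side with the TATA box (TATAAA) in capitals, at chr6:67037398-67037467 on the minus strand for *Gadd45a*, chr10:80930031-80930100 on the plus strand for *Gadd45b* and chr13:51846615-51846684 on the plus strand for *Gadd45g*.
Gadd45a: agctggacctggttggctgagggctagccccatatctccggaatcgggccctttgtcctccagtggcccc
Gadd45b: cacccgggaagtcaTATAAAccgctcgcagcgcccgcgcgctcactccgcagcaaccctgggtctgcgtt
Gadd45g: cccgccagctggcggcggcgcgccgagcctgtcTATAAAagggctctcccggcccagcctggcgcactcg
*Gadd45b* held TATAAA from -46 to -41 and *Gadd45g* from -27 to -22, while the letters were not in the *Gadd45a* stretch. TATAAA stood in 13.6% of all promoters, on either strand.

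ATAC-seq measures how open chromatin is by how often a transposase cuts it. Within 1000 bp of an end of these genes all the group values of regions were lower under the label cKO. The authors' group values, which are log2 mean normalized reads over the 2 libraries of a label, allow neither an SD nor a test here. The region over the *Mdm2* start site (chromosome 10, 117710320 to 117711076) had an authors' mean of 38.9 reads for WT and 5.74 for cKO, a log2 difference of -2.76. The region at *Ccng1* (chromosome 11, 40754692 to 40755796) had 52.7 reads for WT and 7.94 for cKO (-2.73). At the upstream start site of *Sesn1* (chromosome 10, 41809443 to 41810656), which also lies within 1000 bp of an end of *Cep57l1*, the means were 56.1 and 6.32 reads, the largest of these log2 differences at -3.15. *Sesn2* (chromosome 4, 132509880 to 132510711) had the smallest, with 29.4 and 8.06 reads (-1.87).

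Among the GADD45 genes, the region at *Gadd45a* (chromosome 6, 67036134 to 67037937) had the most reads of the 8 under both labels, not corrected for width, with an authors' mean of 108 reads for WT and 17.1 for cKO (log2 difference -2.66), and an end of *E230016M11Rik* lies within 1000 bp. *Gadd45b* had a region over its start site (80929518 to 80931033) with 57.7 and 7.36 reads (-2.97) and another upstream (80928655 to 80929293) with 21.0 and 5.03 reads (-2.06). *Gadd45g* had the widest region, 2383 bp (51845778 to 51848160), with 61.4 and 16.2 reads (-1.92). The 3 genes thus shared a lower group value under the label cKO, whatever their RNA.

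All 8 regions had a log2 difference under -1, where 59.6% of all regions and 88.8% of the 8002 regions within 1000 bp of any gene end did, and 0 of the 8 had one over 1, where 8.67% of all regions did. All 8 also had a peak in both WT libraries. Of the 10259 regions with such peaks, 93.2% had a log2 difference under -1 and 1 had one over 1. The counts at these genes are thus near those of gene ends in general and of regions with peaks in both WT libraries, and do not set these genes apart. Their median log2 difference was -2.69, against -2.50 for regions at gene ends. *Mdm2*, *Ccng1*, *Sesn1*, *Sesn2*, *Gadd45a* and *Gadd45g* had RNA that overlapped between the labels beside regions whose WT value was 3.66 to 8.88 times the cKO value. Of these, *Gadd45g* overlapped only through WT replicate 1, and its log2 RNA difference was -1.16, beside -0.98 for *Gadd45b*. *Gadd45b*, whose RNA was lower without overlap, had regions at 4.17 and 7.84 times. *Cdkn1a* and *Trp53*, also without overlap, had no region within 1000 bp of an end, nor did *Mdm4*. Within 3000 bp, 1 further region lay past the far end of *Ccng1* (40745783 to 40746322), with 5.54 reads for WT and 6.15 for cKO (log2 difference 0.15).

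**Figure D4:**
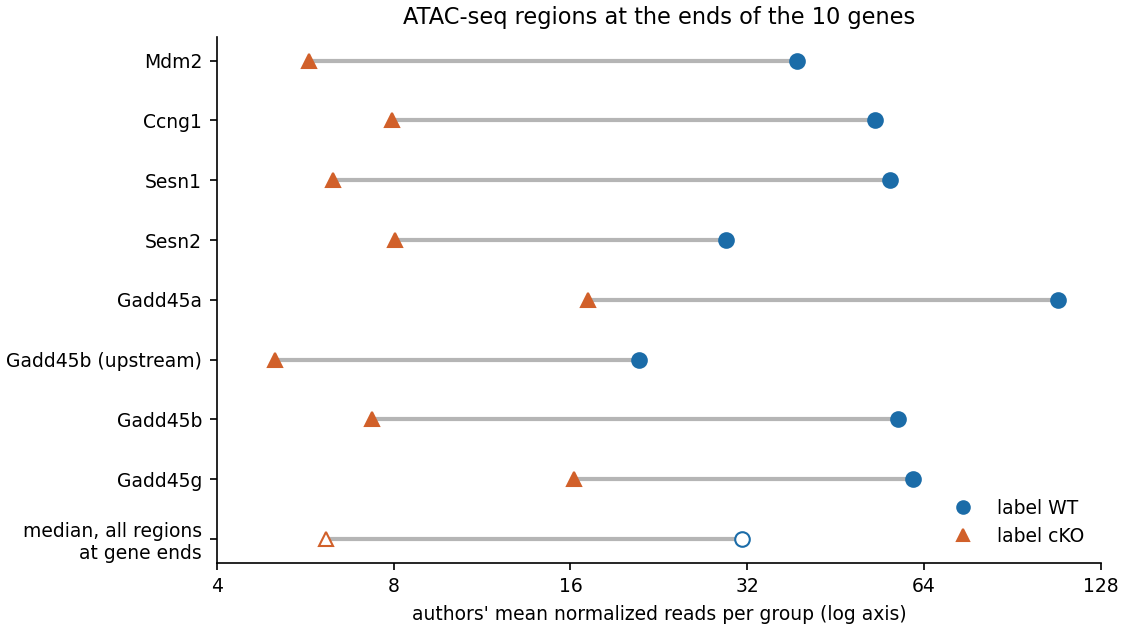
Authors' mean normalized reads per label, on a log axis, for the 8 regions within 1000 bp of an end of the 10 genes (filled) and the median of all regions at gene ends (open). Every WT value, from 21.0 to 108 reads, lies right of its cKO value, from 5.03 to 17.1 reads, as do the medians of 31.3 and 6.15 reads.

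Peak lists of single libraries show the 2 libraries of each label apart. WT replicates 1 and 2 had a peak within 1000 bp of an end of 8 of the 10 genes each, beside 65.1% and 58.2% of the 15518 tested genes with a position. The libraries labelled cKO had one at 0 genes in replicate 1 and at 3 in replicate 2, beside 13.6% and 13.9%. Those 3 peaks lay near the far ends of *Mdm2* and *Cdkn1a* and inside *Gadd45a*, from 401 to 829 bp past its 5′ end. At *Trp53* each WT library had peaks, but not in the same place: replicate 1 from -635 to -343 and from 556 to 1175 bp, and replicate 2 from -303 to -33 bp of the 5′ end, as well as beyond the far end. The totals of 76522 and 42265 peaks for WT and 55902 and 68317 for cKO do not follow the label, while peaks at gene ends do.

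**Figure D5:**
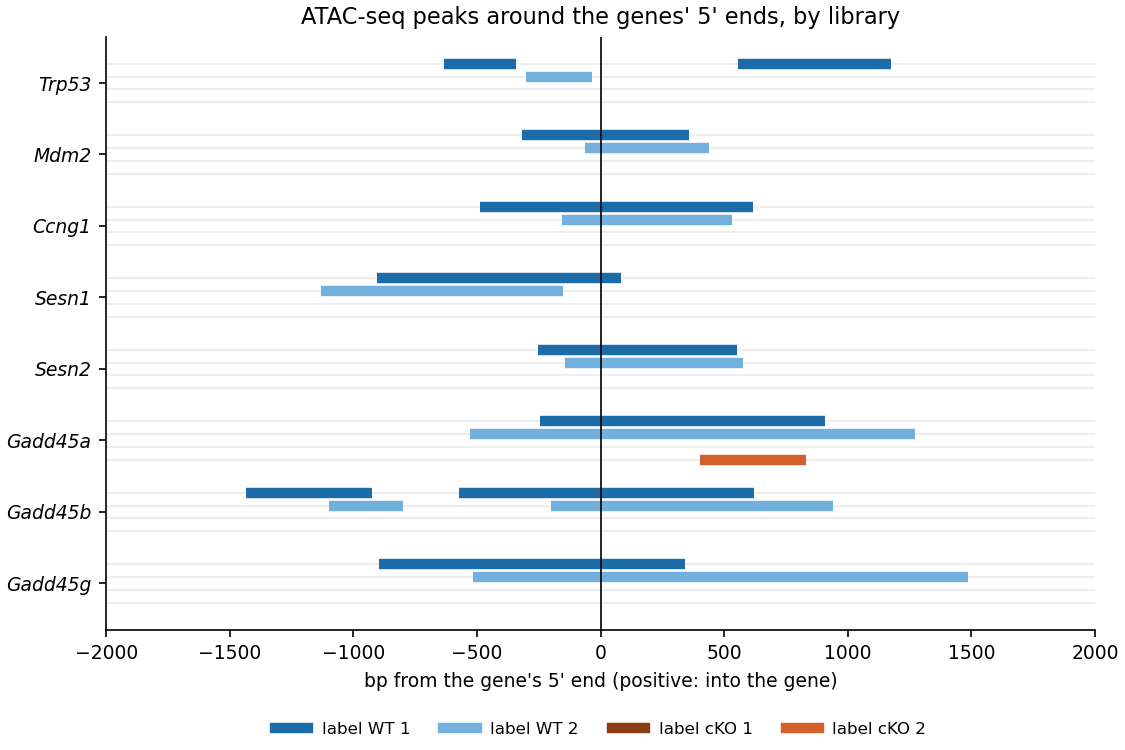
Peaks of each ATAC-seq library around the 5′ ends of the 8 genes that had a peak there, in bp from the 5′ end. Both WT libraries cover the 5′ end or its surroundings in every gene, and a single cKO peak appears, in replicate 2 at *Gadd45a*.

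Start sites inside a gene were examined as well, an addition made after the data were seen. The downstream start site of *Mdm4* at 133025416 on chromosome 1 lay under a region (133025100 to 133025721) with an authors' mean of 19.2 reads for WT and 3.51 for cKO, a log2 difference of -2.45, and with a peak in both WT libraries. The internal start site of *Sesn1*, whose promoter is printed above, lay under a region (41887005 to 41887822) with 35.0 and 4.63 reads (-2.92). With these, 8 of the 10 genes had a region within 1000 bp of a start site, beside 58.3% of 11687 tested genes with a promoter sequence. *Cdkn1a* had none: inside the gene, WT replicate 1 had a peak from 1403 to 2138 bp and WT replicate 2 one from 727 to 1257 bp past the downstream start site, without overlap between them. *Trp53* and *Cdkn1a* therefore stayed without a region at any start site.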

How the data were processed

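Sorted retinal cells were measured by RNA-seq (6 libraries) and ATAC-seq (4 libraries), grouped by the sample labels. The authors trimmed reads, quantified transcripts with Salmon 1.0.0 and summed them to genes, and the deposited TPM values carry no further scaling between libraries. As TPM holds no read depth, no counting interval is given. The deposited ATAC-seq values are the authors' log2 mean normalized reads per group from Bowtie2 2.3.5.1 alignments to GRCm38, and the deposited peak lists (MACS2 2.2.5 is named in the submitters' processing notes) give positions per library. Columns with the authors' own fold changes, p-values and FDR, in the ATAC-seq table and in an RNA-seq table made with DESeq2 1.26.0, were not used.

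Log2(TPM + 1) was compared with limma 3.58.1 under R 4.3.3, by linear models and empirical Bayes moderation with a mean trend, over genes in which at least 3 of 6 libraries reached a TPM of 1, with Benjamini-Hochberg adjustment over all 17555 and a threshold of 0.05. A difference on this scale understates the change of low genes. Single values were tested by exact two-sided permutation (scipy 1.17.1). The scripts were tested on simulated data. Region and peak positions were matched to both ends of each gene (1000 bp, overlap of at least 1 bp), as the gene table, on GRCm38.p6, has no strand, and strand and start sites came from the RefSeq promoter table. Positions are counted from 1. Protein sequences were not used here.

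The members and lists were chosen with earlier results of these data known. Named genes are the 10 members, *Arid1a*, the called genes of each list or, without any, up to 3 with the lowest unadjusted p under 0.05, and *Bax*, *Bbc3*, *Pmaip1*, *Atf3*, *Ddit3* and *Map3k4*; others are said to be picked after their values were seen. Cell types were read from 11 marker lists. Besides those given in the report, summed TPM for WT and cKO ran from 2004 to 2510 and 3523 to 6144 for cones, 1056 to 1433 and 1289 to 2200 for bipolar cells, 511 to 759 and 982 to 2115 for amacrine cells, 9441 to 18712 and 7695 to 17675 for Mueller glia and astrocytes, 8660 to 54439 and 2304 to 9240 for B cells, 387 to 1047 and 274 to 773 for endothelial cells and pericytes, and 94.3 to 1353 and 130 to 234 for erythrocytes. Pairing by replicate number was checked: across genes, deviations from the group means of WT and cKO libraries with the same number had correlations of 0.334, 0.101 and 0.425, and those with different numbers from -0.386 to 0.193 (WT replicate 1 with cKO replicate 2). All 3 same-number values being over 0.1, the numbers were taken to pair the RNA-seq libraries, and the replicate number was used as a block as an alternative. This pairing is an assumption, as the sample titles give numbers alone. For cKO replicate 2 the correlation was higher with WT replicate 1 (0.193) than with WT replicate 2 (0.101). Other alternatives were a pseudocount of 0.1, no filter, a minimum mean TPM of 5, median-of-ratios scaling, no trend, leaving out each library, 3000 bp at gene ends, a log2 difference past 2, regions that both WT libraries have a peak in and a reciprocal overlap of 50%; the block together with scaling, a sign-flip test within pairs for shares and ratio, and start sites inside genes, were added after the data were seen.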

Additional observations from a re-analysis of the deposited data

How the results depend on the processing

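No member gene was called under any of the 13 RNA-seq alternatives, the replicate block included, and the block changed no call on a member; with it the lowest adjusted p was 0.0877, for *Cdkn1a*. *Trp53*, *Mdm4*, *Cdkn1a*, *Ccng1*, *Sesn2*, *Gadd45b* and *Gadd45g* kept their direction under all 13. Of these, *Sesn2* was the least steady in size, from 0.03 to 0.43 with a library left out. *Mdm2* turned to -0.0074 under scaling by the median of ratios, with or without the block, and *Map3k4* to -0.016. With each library left out, *Sesn1* ran from -0.34 to 0.21, *Gadd45a* from -1.36 to 0.38 and *Map3k4* from -0.052 to 0.25, and the cause was not tested. The differences in share of the GADD45 sum ran from -1.58 to 16.5 percentage points for *Gadd45a* (6.89 with all libraries), from -9.5 to 3.85 for *Gadd45b* (-2.08) and from -14.4 to 2.17 for *Gadd45g* (-4.81). Over all genes, 1 was called higher and 0 lower; the counts were 4 and 0 without the trend, 1 and 1 with the block, between 0 and 1 lower with a library left out, and 3 and 47 with the block and scaling together, where 1 gene of the pathway lists, *Ccnd2*, was called (adjusted p = 0.0479 from limma) and *Cdkn1a* had an adjusted p of 0.0809. Unadjusted, 2095 genes were higher and 1133 lower as deposited, and 1329 and 1677 after scaling. For peaks, 2 genes instead of 0 had one in cKO replicate 1 within 3000 bp of an end, and with a reciprocal overlap of 50% the 1 member region with a peak in cKO replicate 2 had 0. ATAC-seq allowed no pairing, as only values per group were deposited. RNA-seq depth is unknown, and 3 libraries against 3 give no exact p under 0.1.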
